A study of Mus musculus with 9 samples.

Results

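Blood and lymphatic endothelial cells line the vessels of the kidney, and 36 genes that mark them were followed here across kidneys of mice with a changed NF-κB subunit. The genes were chosen by symbol (receptors, junction proteins, surface glycoproteins, transcription factors and lymphatic markers). All 36 were found among the 52636 genes of the deposited tables, and all 36 were among the 17114 genes that passed the filter on low counts. Whole-kidney RNA was sequenced in 9 libraries, 3 per genotype. The C59A mice carried a knock-in allele of Nfkb1, the gene of NF-κB p50, that puts alanine in place of a cysteine of its DNA-binding part. The C59S mice carried serine at the same residue by name, and both alleles kept a PGK-neo selection cassette in a nearby intron. The WT mice carried neither change, and the line came from C57BL/6NTac embryonic stem cells. In the labels C59A is marked as activated and C59S as inactivated, but their account of DNA binding by the alleles runs in the other order, so no direction of NF-κB activity is taken from either name. No age, sex, litter or batch is given, nor whether replicates are separate animals, so that p-values measure the spread between these libraries, which may be technical.

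The endothelium is kept by a few signalling systems. VEGF acts on its receptors to drive growth and permeability, angiopoietins act through Tie2 (Tek) to stabilise vessels, and Notch and ephrin signals separate arteries from veins. Junction proteins such as VE-cadherin (Cdh5) hold the cells together, and ETS and SoxF transcription factors keep the identity genes active. In the kidney these cells form the fenestrated glomerular capillaries that filter plasma and the peritubular capillaries that take up what the tubules return.

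Promoter sequences show where the binding letters of such factors stand in these genes. RefSeq promoter entries (GRCm38.p6, 250 bases before and 50 after the start of the transcript) were matched by symbol for 19 of the 36 genes. The 4 printed here belong to the matched genes with the smallest p-values between C59S and WT. They are read 5′ to 3′ on the gene's strand. Capitals mark matches, on either strand, to the ETS letters CNGGAAG, the SOX letters AACAAT or the NF-κB consensus.
Clec14a: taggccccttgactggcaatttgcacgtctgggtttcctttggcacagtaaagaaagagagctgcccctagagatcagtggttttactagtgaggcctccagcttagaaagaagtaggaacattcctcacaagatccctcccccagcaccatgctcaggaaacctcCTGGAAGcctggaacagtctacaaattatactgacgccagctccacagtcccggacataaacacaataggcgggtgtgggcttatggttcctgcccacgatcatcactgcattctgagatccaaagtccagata
Cd34: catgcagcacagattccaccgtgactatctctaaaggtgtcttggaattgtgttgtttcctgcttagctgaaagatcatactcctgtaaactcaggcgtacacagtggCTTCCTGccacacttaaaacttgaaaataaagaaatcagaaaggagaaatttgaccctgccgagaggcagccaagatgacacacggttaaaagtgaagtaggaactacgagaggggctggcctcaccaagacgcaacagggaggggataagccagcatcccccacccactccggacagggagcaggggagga
Dll4: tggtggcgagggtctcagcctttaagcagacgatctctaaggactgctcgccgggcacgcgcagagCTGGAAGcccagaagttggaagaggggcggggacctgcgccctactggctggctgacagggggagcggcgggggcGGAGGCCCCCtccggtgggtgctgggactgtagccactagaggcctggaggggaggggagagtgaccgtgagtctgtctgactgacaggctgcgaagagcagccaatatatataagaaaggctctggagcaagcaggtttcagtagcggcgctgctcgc
Emcn: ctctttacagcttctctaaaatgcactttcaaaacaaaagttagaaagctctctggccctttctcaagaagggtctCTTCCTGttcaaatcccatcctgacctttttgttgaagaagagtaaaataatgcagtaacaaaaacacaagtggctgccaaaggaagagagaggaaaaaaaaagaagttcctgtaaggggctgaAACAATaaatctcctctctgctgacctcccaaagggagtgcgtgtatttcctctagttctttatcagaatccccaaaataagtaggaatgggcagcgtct
The Clec14a promoter lies at chr12:58269209-58269508 on the minus strand, Cd34 at chr1:194938571-194938870, Dll4 at chr2:119325534-119325833 and Emcn at chr3:137340828-137341127, the last 3 on the plus strand. Each of the 4 held an ETS match, at positions -84 to -78 from the start in Clec14a, -142 to -136 in Cd34, -184 to -178 in Dll4 and -174 to -168 in Emcn. Emcn also held the SOX letters at -50 to -45, and Dll4 the NF-κB consensus at -109 to -100. No match of one motif overlapped another in these 4 windows. Among the 24 promoter entries of the 19 genes, 16 held the ETS letters, against 31.9% of all 32851 mouse promoters of the same length. The SOX letters stood in 3 of the 24 (Emcn, Erg and Tek), against 10.7% of all promoters. The NF-κB consensus stood in 5 (Dll4, Ehd3, Flt1, Kdr and Notch4), against 8.46% of all. These are matches of letters and do not show binding.

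The libraries held 16367403 to 25787659 counts each, so that 3 counts correspond to 0.112 to 0.202 CPM (counts over the library total times its TMM factor, a correction for composition, times 1e+06). Mitochondrial genes took 20.8% to 28.8% of the counts in C59A libraries, 20.5% to 40.6% in C59S libraries (40.6% in C59S replicate 3) and 16.4% to 19.6% in WT libraries. Nfkb1 itself was read at 29.2 to 39.7 CPM in C59A, 36.9 to 39.6 CPM in C59S and 32.2 to 36.8 CPM in WT libraries. A gene count does not show a changed codon and so does not check the genotype. The 4 Y-linked genes Ddx3y, Eif2s3y, Kdm5d and Uty summed to 167 to 174 CPM in C59A libraries, 0 to 2.56 CPM in C59S and 0 to 0.238 CPM in WT libraries. Xist lay at 0.19 to 0.724 CPM in C59A, 884 to 894 CPM in C59S and 815 to 1270 CPM in WT. In every comparison with C59A below, the allele and this sex-linked difference cannot be told apart. In whole-kidney RNA, fewer endothelial cells and less RNA of these genes per cell cannot be told apart either.

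The endothelial label held in the data in that the defining junction genes Pecam1 and Cdh5 were read at 34.4 CPM or more and 24.8 CPM or more in all 9 libraries. Levels between genes were compared per length, in the deposited FPKM. Plvap, which builds the diaphragms of fenestrae, had the highest mean at 110 ± 23.4 FPKM in C59A, 161 ± 18.6 FPKM in C59S and 90.5 ± 48.7 FPKM in WT (SD, n = 3 each). The second was Eng at 52.5 ± 4.83 FPKM in C59A, 86.1 ± 13.2 FPKM in C59S and 54.0 ± 21.7 FPKM in WT. Cldn5, Egfl7 and Ehd3 followed, at 24.0 to 25.6 FPKM in WT, which is closer together than the WT libraries of each (SD 7.93 to 10 FPKM). The other end of the order held the lymphatic genes Prox1 (0.597 ± 0.149 FPKM) and Lyve1 (0.110 ± 0.0676 FPKM) and, between them, Vwf (0.299 ± 0.0754 FPKM) in WT. Lyve1 rested on 31, 6 and 21 counts in C59A, 13, 27 and 30 counts in C59S and 13, 3 and 6 counts in WT, and its log2 fold changes had SEs of 0.65 to 0.72.

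The median of the 36 genes was highest in C59S kidneys, and the tests separated C59S from C59A for some of them. Between C59A and C59S, 7 of the 36 were lower in C59A at an adjusted p under 0.05 (edgeR's quasi-likelihood test, Benjamini-Hochberg over all 17114 genes), and none was higher. Over all genes tested, 5.91% passed in this comparison, 2.56% lower and 3.35% higher. The 7 were Pecam1, Cdh5, Cldn5, Icam2, Ramp2, Dll4 and Efnb2. All 36 log2 fold changes were below 0, from -1.08 to -0.16, with a median of -0.71, beside -0.01 over all genes, of which 49% were above 0. The 3 C59A libraries lay below all 3 C59S libraries for 26 of the 36, where 14.5% of all genes did so, and 23 of the 36 had an unadjusted p under 0.05, where 11.9% of all genes were lower at that level.

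Between C59S and WT, none of the 36 genes passed with edgeR, nor did any of the 17114 genes (0%). At an unadjusted p under 0.05, 26 of the 36 were higher in C59S and none was lower, where 8.23% of all genes were higher at that level. The median log2 fold change was 0.77, beside 0.01 over all genes, with all 36 between 0.16 and 1.83 (35 above 0 with voom, with library totals alone or without C59S replicate 1; 51.1% of all genes were above 0), and the groups did not overlap for 20 of the 36, where 11.2% of all genes were higher without overlap. With DESeq2 12 of the 36 were called higher (Pecam1, Cdh5, Vwf, Emcn, Esam, Cd34, Icam2, Mmrn2, Clec14a, Ramp2, S1pr1 and Gpihbp1, with 3.75% of all genes called), and with limma's voom none (0% of all genes). The labels state no pairing, and the numbers in the deposited column names differ between same-numbered C59S and WT libraries. The replicate number was taken to pair these libraries from correlations in these same data (see the processing). When that number was fitted as a block in these 6 libraries alone, 13 were called higher, with adjusted p from 0.0321 to 0.0466 (edgeR, 3.82% of all genes called). These were Pecam1, Cdh5, Vwf, Emcn, Esam, Erg, Sox7, Cd34, Mmrn2, Clec14a, Ramp2, S1pr1 and Gpihbp1. With the block over all 9 libraries none was (0% of all genes). The block was chosen from correlations in the counts that it tests, so the 13 calls are no separate support for a difference. The same holds for every value given with the block below.

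Between C59A and WT, none of the 36 genes was called by edgeR, DESeq2 or voom, where 5.7% of all genes were called by edgeR, 9.43% by DESeq2 and 5.99% by voom. At an unadjusted p under 0.05, 1 was higher (Lyve1) and 1 lower (Ephb4), where 21% of all genes were in either direction. The median log2 fold change was 0.05, beside -0.02 over all genes, and 22 of the 36 were above 0 (9 when scaled by library totals alone), where 47.6% of all genes were. The C59A and C59S comparisons with WT share the 3 WT libraries, so that their values are given side by side and not set against each other as independent. The direct contrast of C59A with C59S is the test of the difference between these groups, which differ in the allele and in the sex-linked genes.

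**Figure D1:**
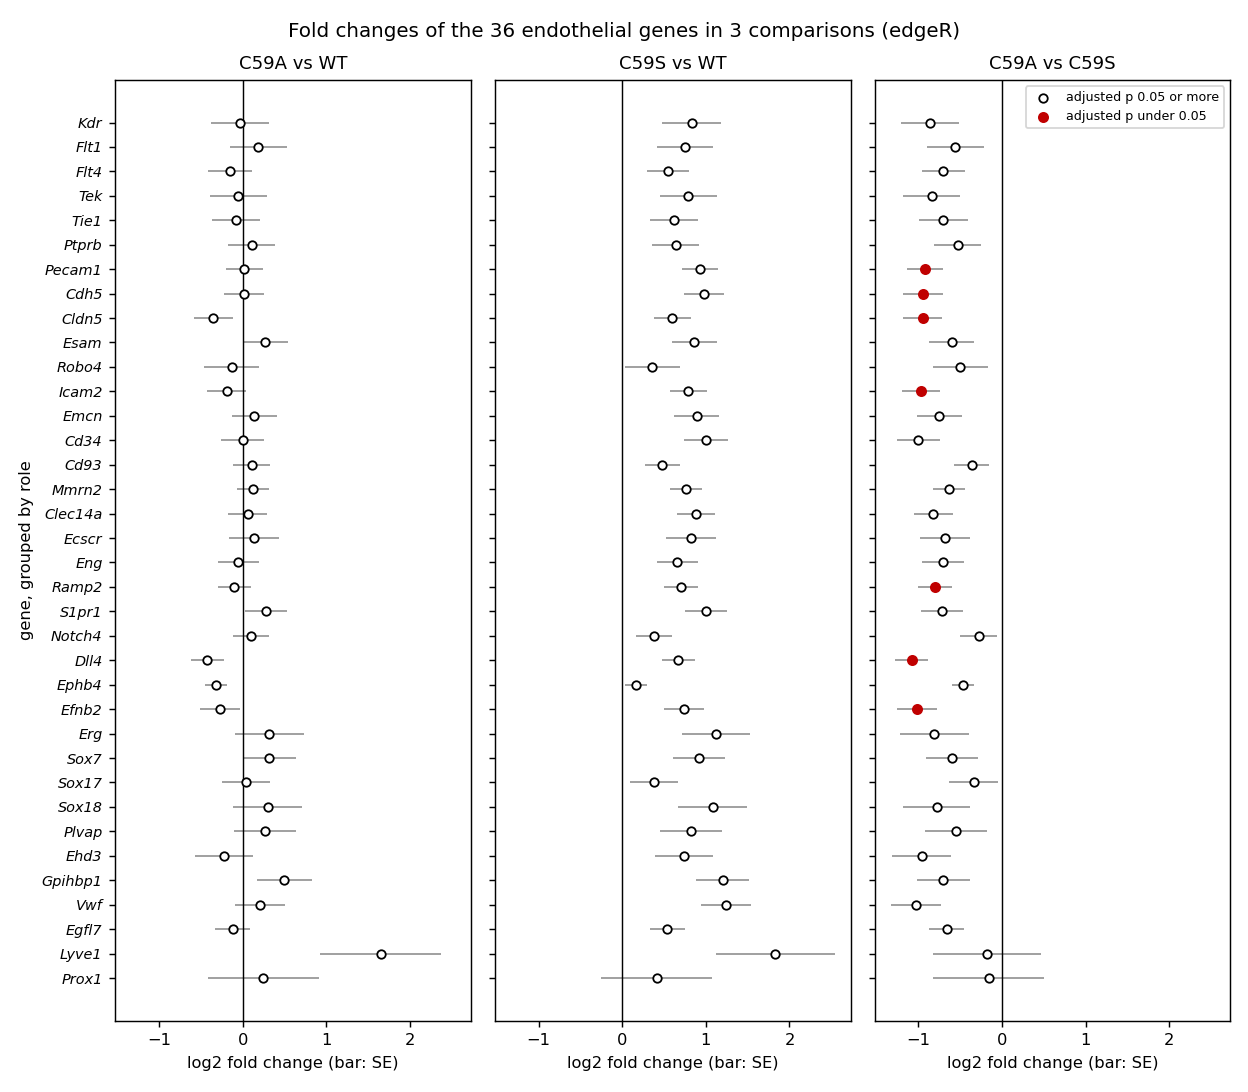
Log2 fold change (x axis) with its SE (bar) of the 36 endothelial genes (y axis, grouped by role) in C59A vs WT, C59S vs WT and C59A vs C59S, from edgeR. Filled points mark the 7 genes with an adjusted p under 0.05, all in C59A vs C59S. The C59A vs WT points scatter around 0 with a median of 0.05, while the C59S vs WT points lie right of 0 and the C59A vs C59S points left of it.

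The calls between C59A and C59S depended on single libraries. The count was 1 without C59A replicate 1, 5 without C59A replicate 2, 0 without C59A replicate 3, 6 without C59S replicate 1, 2 without C59S replicate 2, 0 without C59S replicate 3, 2 without WT replicate 1, 18 without WT replicate 2 and 13 without WT replicate 3, against 7 with all libraries, and 1.8% to 7.4% of all genes were called in these fits. The WT libraries enter through the shared estimate of spread. The median log2 fold change stayed between -0.84 and -0.54 in these 9 fits. With all libraries, DESeq2 called the 7 and also Vwf, Egfl7, Ehd3, Cd34, Mmrn2, Clec14a and Ephb4 (10.3% of all genes called). With voom the 7 and also Vwf, Cd34, Mmrn2, Clec14a and Ephb4 were called (10.3% of all genes). With the C59A and C59S libraries alone edgeR called 20 (7.59% of all genes called), among them Kdr, Flt1, Flt4, Tek, Tie1, Emcn, Eng and Gpihbp1.

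None of the 3 VEGF receptors was called in the edgeR fit of all 9 libraries. Kdr, the main signalling receptor of VEGF, had 60.6, 60.3 and 64.2 CPM in C59A, 81.2, 120 and 135 CPM in C59S and 57.5, 32.5 and 98.6 CPM in WT. The C59A libraries lay below all C59S libraries, and the WT libraries spread more widely than either. Its log2 fold change was -0.86 ± 0.35 (SE) in C59A vs C59S (adjusted p 0.184) and 0.83 ± 0.35 in C59S vs WT (adjusted p 0.256). Flt1, a receptor that binds VEGF and limits its signal, ranged from 44.1 to 55.1 CPM in C59A, 63.3 to 81.6 CPM in C59S and 20.7 to 66.4 CPM in WT. Flt4, the receptor of VEGF-C, ranged from 10.8 to 15.1 CPM in C59A, 20.1 to 23.3 CPM in C59S and 9.24 to 21.4 CPM in WT. For Flt1 and Flt4, as for Kdr, C59A and C59S did not overlap, and WT overlapped both.

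The angiopoietin receptor genes had their highest means in C59S, with no call in that fit. Tek, the receptor Tie2, had 31.9, 41.7 and 24.8 CPM in C59A, 58.4, 51.7 and 65.8 CPM in C59S and 38.7, 16.4 and 46.8 CPM in WT, and its C59S libraries lay above all of the other 6. The fold change was -0.84 ± 0.34 on the log2 scale in C59A vs C59S (adjusted p 0.185) and 0.79 ± 0.34 in C59S vs WT (adjusted p 0.269). Tie1, the partner receptor of Tie2, ranged from 49.5 to 71.2 CPM in C59A, 81.6 to 120 CPM in C59S and 35.3 to 85.3 CPM in WT. Ptprb, the phosphatase VE-PTP that dampens Tie2, ranged from 38.9 to 63.1 CPM in C59A, 62.0 to 89.7 CPM in C59S and 28.6 to 63.4 CPM in WT.

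Junction and adhesion genes held 4 of the 7 calls between C59A and C59S. Pecam1 (chr11:106654217-106750628 in GRCm38, minus strand), the platelet endothelial adhesion molecule CD31, had 54.6, 52.5 and 44.0 CPM in C59A, 79.1, 84.8 and 122 CPM in C59S and 51.5, 34.4 and 63.5 CPM in WT. All 3 C59S libraries lay above the other 6. It was lower in C59A than in C59S by a log2 fold change of -0.92 ± 0.22 (adjusted p 0.0396), and its value in C59S vs WT was 0.93 ± 0.22 (adjusted p 0.13, or 0.0345 with the replicate block in those 6 libraries). Cdh5 (chr8:104101625-104144511, plus strand), VE-cadherin of the adherens junction, had 38.3, 40.9 and 34.7 CPM in C59A, 59.7, 63.3 and 97.6 CPM in C59S and 39.5, 24.8 and 47.6 CPM in WT. C59S again stood clear of both other groups. The log2 fold change was -0.95 ± 0.24 in C59A vs C59S (adjusted p 0.0478) and 0.98 ± 0.24 in C59S vs WT (adjusted p 0.133, or 0.037 with the block).

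Cldn5 (chr16:18776847-18778260, plus strand), the claudin of endothelial tight junctions, had 27.0, 28.8 and 30.9 CPM in C59A, 44.0, 56.1 and 68.0 CPM in C59S and 44.3, 23.8 and 42.6 CPM in WT. C59A and C59S did not overlap, while the WT libraries reached from below C59A to just above the lowest C59S library. The log2 fold change was -0.95 ± 0.23 in C59A vs C59S (adjusted p 0.0364) and 0.60 ± 0.22 in C59S vs WT (adjusted p 0.215). Icam2 (chr11:106377656-106388075, minus strand), an adhesion molecule that leukocytes bind, had 9.71, 11.1 and 10.2 CPM in C59A, 16.2, 21.0 and 24.0 CPM in C59S and 12.0, 7.88 and 15.5 CPM in WT. Icam2 had a log2 fold change of -0.97 ± 0.23 in C59A vs C59S (adjusted p 0.0309) and 0.79 ± 0.22 in C59S vs WT (adjusted p 0.147). Esam, an adhesion molecule of endothelial tight junctions, ranged from 27.8 to 51.4 CPM in C59A, 47.1 to 66.2 CPM in C59S and 20.9 to 37.6 CPM in WT, so that C59S lay clear of WT but not of C59A. Robo4, a receptor that stabilises vessels, ranged from 23.2 to 35.5 CPM in C59A, 37.7 to 48.5 CPM in C59S and 16.4 to 46.1 CPM in WT.

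**Figure D2:**
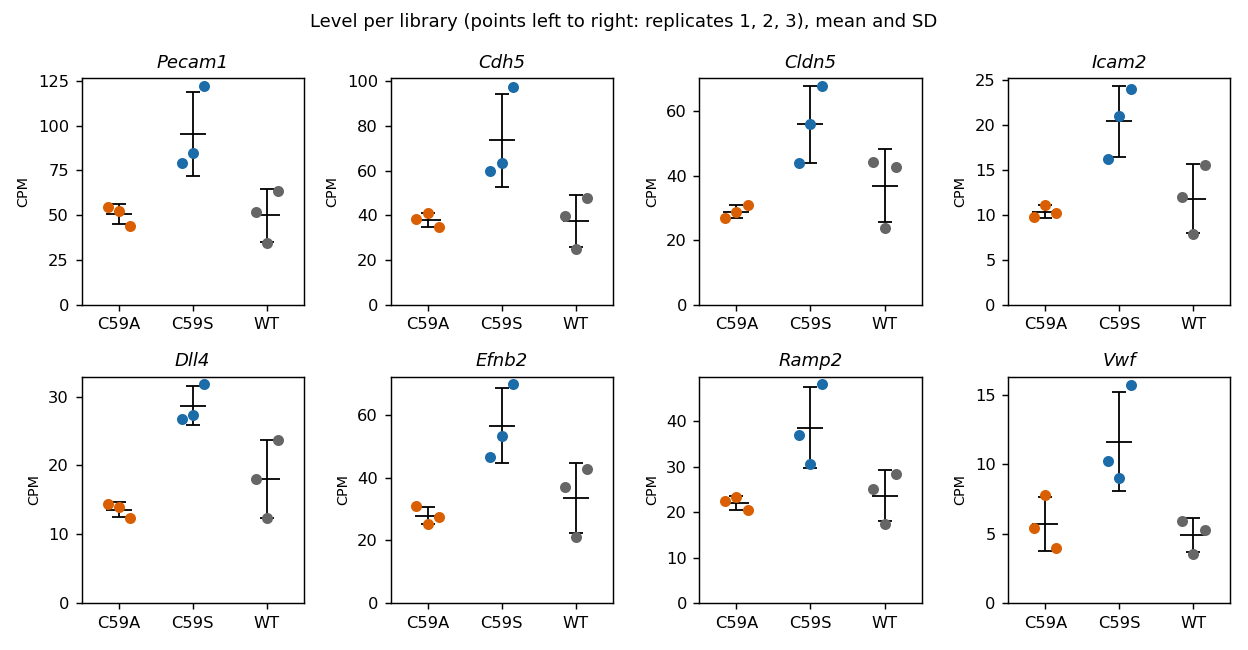
CPM (y axis) of 8 endothelial genes in each library, with C59A, C59S and WT along the x axis; points are replicates 1 to 3 from left to right and bars the mean and SD (n = 3). For all 8 genes the C59S libraries lie above the C59A libraries, and WT replicate 2 is the lowest WT library in each panel.

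Of the surface glycoproteins, none was called in the edgeR fit of all 9 libraries, and all 6 had an unadjusted p under 0.05 in C59S vs WT. Cd34, a sialomucin of capillaries and of blood progenitors, had 24.4, 28.2 and 24.8 CPM in C59A, 42.8, 45.1 and 67.4 CPM in C59S and 27.5, 15.7 and 34.0 CPM in WT, with C59S clear of both. Its log2 fold change was -1.0 ± 0.26 in C59A vs C59S, just outside the threshold (adjusted p 0.054), and 1.00 ± 0.26 in C59S vs WT (adjusted p 0.142, or 0.0419 with the block). Clec14a, a lectin-like receptor of vessel sprouting, had 8.44, 15.1 and 10.7 CPM in C59A, 18.9, 20.1 and 21.6 CPM in C59S and 13.0, 7.58 and 12.2 CPM in WT. The fold change was -0.82 ± 0.23 on the log2 scale in C59A vs C59S (adjusted p 0.0623) and 0.88 ± 0.23 in C59S vs WT (adjusted p 0.139, or 0.0461 with the block). Mmrn2, a matrix protein that binds Clec14a and Cd93, ranged from 18.5 to 25.4 CPM in C59A, 30.3 to 39.4 CPM in C59S and 14.7 to 25.0 CPM in WT. Emcn, a sialomucin of capillaries and veins, ranged from 68.1 to 88.0 CPM in C59A, 103 to 163 CPM in C59S and 42.2 to 96.0 CPM in WT. C59S therefore stood apart from both groups for these 4 genes. Cd93 and Ecscr overlapped more. Cd93, a receptor of sprouting vessels, ranged from 16.5 to 24.2 CPM in C59A, 22.5 to 31.5 CPM in C59S and 13.4 to 23.7 CPM in WT. Ecscr, a regulator of endothelial migration, ranged from 3.2 to 6.79 CPM in C59A, 6.52 to 8.22 CPM in C59S and 3.06 to 4.76 CPM in WT.

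Ramp2 (chr11:101246028-101259546, plus strand), the partner protein that makes Calcrl an adrenomedullin receptor, had 22.4, 23.4 and 20.4 CPM in C59A, 36.9, 30.6 and 48.3 CPM in C59S and 25.0, 17.5 and 28.4 CPM in WT. On the log2 scale the change was -0.80 ± 0.20 in C59A vs C59S (adjusted p 0.0366) and 0.70 ± 0.20 in C59S vs WT (adjusted p 0.144, or 0.0347 with the block). S1pr1, the sphingosine-1-phosphate receptor that tightens the barrier, had 12.2, 16.5 and 13.2 CPM in C59A, 22.2, 16.7 and 30.5 CPM in C59S and 11.4, 8.39 and 14.8 CPM in WT. C59S replicate 2 lay just above the highest C59A library, and the fold change was -0.72 ± 0.25 in C59A vs C59S (log2, adjusted p 0.114) and 1.00 ± 0.25 in C59S vs WT (adjusted p 0.13, or 0.0321 with the block). Eng, endoglin, a co-receptor of BMP ligands, had 237, 198 and 209 CPM in C59A, 297, 359 and 400 CPM in C59S and 216, 137 and 314 CPM in WT. WT replicate 3 overlapped the C59S libraries, and neither contrast with C59S passed.

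Of the 4 Notch and ephrin genes, Dll4 and Efnb2 were called lower in C59A than in C59S. Dll4 (chr2:119325784-119335962, plus strand), the Notch ligand of arteries and sprouting tips, had 14.4, 13.9 and 12.3 CPM in C59A, 26.8, 27.3 and 31.9 CPM in C59S and 18, 12.4 and 23.7 CPM in WT. The C59S libraries lay above all of the other 6, of which WT replicate 3 came nearest. Its log2 fold change of -1.08 ± 0.20 in C59A vs C59S had the smallest adjusted p of the 36 genes (0.0107), and its value in C59S vs WT was 0.67 ± 0.20 (adjusted p 0.151). The call was lost without C59A replicate 3 and without C59S replicate 3, with an adjusted p of at most 0.0532 over the 9 fits. Efnb2 (chr8:8617434-8661242, minus strand), ephrin-B2 of arterial cells, had 30.8, 25.3 and 27.5 CPM in C59A, 46.5, 53.2 and 69.7 CPM in C59S and 37.1, 21.1 and 42.6 CPM in WT. The fold change was -1.02 ± 0.24 in C59A vs C59S (log2, adjusted p 0.0347) and 0.74 ± 0.24 in C59S vs WT (adjusted p 0.17).

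Ephb4, the receptor of ephrin-B2 on veins, had 36.3, 39.8 and 31.9 CPM in C59A, 46.1, 48.4 and 55.6 CPM in C59S and 43.6, 40.2 and 50.4 CPM in WT. It was the only one of the 36 whose C59A libraries lay below all WT libraries, where 12% of all genes did so, with a log2 fold change of -0.32 ± 0.13 in C59A vs WT (adjusted p 0.198). Against C59S the change was -0.47 ± 0.13 (adjusted p 0.0579). Notch4, a Notch receptor of endothelium, ranged from 40.1 to 49.1 CPM in C59A, 48.3 to 65.1 CPM in C59S and 26.7 to 51.2 CPM in WT, and its groups overlapped in all comparisons.

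None of the 4 transcription factors was called in the edgeR fit of all 9 libraries. Erg, the ETS factor of endothelial identity, had 9.23, 18.7 and 7.95 CPM in C59A, 22.1, 12.4 and 28.3 CPM in C59S and 11.4, 5.93 and 11.3 CPM in WT. C59S lay above WT, with a log2 fold change of 1.12 ± 0.41 (adjusted p 0.215, or 0.0321 with the block), while C59A replicate 2 lay within the C59S range. Sox18, a SoxF factor of vessels and lymphatics, had 23.0, 27.3 and 25.7 CPM in C59A, 30.6, 37.2 and 62.9 CPM in C59S and 25.5, 8.94 and 27.2 CPM in WT (1.08 ± 0.41 in C59S vs WT, log2, adjusted p 0.226). Sox7 ranged from 3.67 to 5.01 CPM in C59A, 4.51 to 8.7 CPM in C59S and 2.21 to 4.52 CPM in WT. Sox17, the SoxF factor of arteries, ranged from 41.5 to 69.0 CPM in C59A, 55.3 to 80.3 CPM in C59S and 30.7 to 70.0 CPM in WT.

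None of the 3 genes of capillary function was called in the edgeR fit of all 9 libraries. Plvap had 205, 275 and 181 CPM in C59A, 359, 281 and 329 CPM in C59S and 194, 79.5 and 275 CPM in WT, and WT replicate 2 stood far below the other 8 libraries. Ehd3, a membrane-trafficking protein of glomerular endothelium, had 82.3, 55.1 and 93.7 CPM in C59A, 109, 133 and 207 CPM in C59S and 91.8, 51.1 and 125 CPM in WT. Gpihbp1, which anchors lipoprotein lipase in capillaries, had 13.4, 15.6 and 11.7 CPM in C59A, 17.8, 20.8 and 27.6 CPM in C59S and 8.33, 5.32 and 15.1 CPM in WT. For all 3 genes C59A and C59S did not overlap. Gpihbp1 had a log2 fold change of 1.20 ± 0.32 in C59S vs WT (adjusted p 0.145, or 0.0419 with the block), and it was the single member called higher in C59A vs WT when WT replicate 3 was left out.

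Both secreted products were highest in C59S. Vwf, the platelet-binding factor stored in endothelial granules, had 5.37, 7.75 and 3.95 CPM in C59A, 10.2, 9.01 and 15.7 CPM in C59S and 5.89, 3.51 and 5.29 CPM in WT. Its log2 fold change was -1.03 ± 0.30 in C59A vs C59S (adjusted p 0.0668) and 1.24 ± 0.30 in C59S vs WT (adjusted p 0.13, or 0.0351 with the block), and C59S lay clear of all other libraries. Egfl7, a matrix protein that guides vessel tubes, ranged from 70.6 to 92.2 CPM in C59A, 122 to 148 CPM in C59S and 61.0 to 119 CPM in WT.

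The 2 lymphatic genes varied widely between libraries of the same genotype, and Lyve1 also had the largest log2 fold changes of the 36 against WT. Lyve1, the hyaluronan receptor of lymphatic vessels and of some macrophages, had 1.87, 0.34 and 1.0 CPM in C59A, 0.484, 1.22 and 2.02 CPM in C59S and 0.547, 0.151 and 0.286 CPM in WT. Its log2 fold change was 1.65 ± 0.72 in C59A vs WT (adjusted p 0.215) and 1.83 ± 0.71 in C59S vs WT (adjusted p 0.22), and the groups overlapped in every comparison. Prox1, the transcription factor of lymphatic fate, had 4.1, 11.2 and 2.95 CPM in C59A, 13.3, 2.66 and 4.25 CPM in C59S and 5.76, 5.93 and 3.62 CPM in WT. C59A replicate 2 and C59S replicate 1 were high and the other libraries of their genotypes low, so that the spread within a genotype was larger than any difference between genotypes. In C59A vs C59S the log2 values nearest to 0 of the 36 were those of Lyve1 (-0.18) and Prox1 (-0.16).

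The shift was shared by libraries as a whole. C59S replicate 3 was the highest of the 9 libraries for 31 of the 36 genes and C59S replicate 1 for the other 5, and WT replicate 2 was the lowest for 33. Over all genes tested C59S replicate 3 was the highest library for 16.2% and WT replicate 2 the lowest for 11.7%. The median of the 36 genes, as log2 CPM minus the WT mean, was 0.1, 0.32 and -0.14 in the C59A libraries, 0.7, 0.66 and 1.05 in the C59S libraries and 0.15, -0.61 and 0.4 in the WT libraries. Above the WT mean lay 24, 29 and 12 of the 36 genes in the C59A libraries, 36, 35 and 35 in the C59S libraries and 34, 1 and 34 in the WT libraries, since WT replicate 2 lowers that mean. Above all 3 WT libraries lay 2, 13 and 1 genes in C59A and 28, 27 and 33 genes in C59S. Without both C59S replicate 3 and WT replicate 2, a choice made after the values were seen, the median in C59S vs WT was 0.37, with all 36 still above 0 and 9 at an unadjusted p under 0.05. In C59A vs C59S, 7 of the 36 genes were again called in that fit, 6 of them among the 7 above, where 2.12% of all genes were called.

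**Figure D3:**
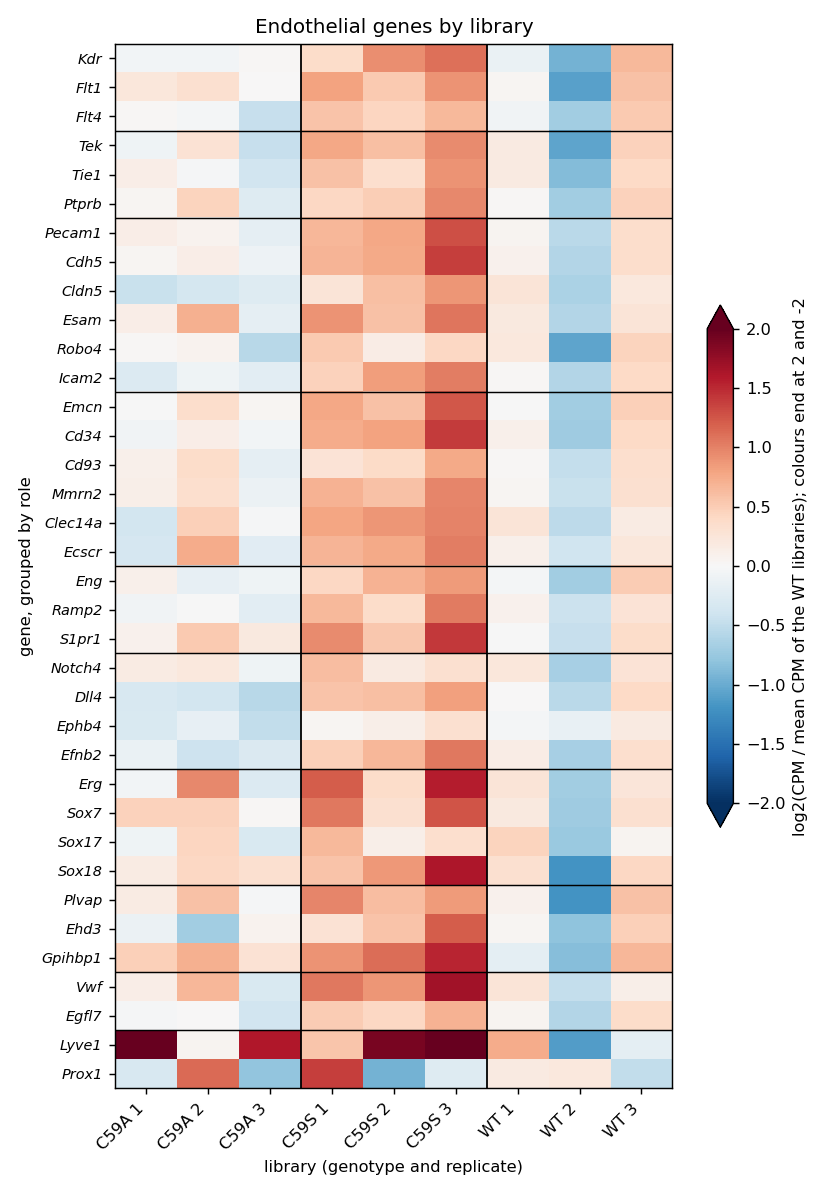
Level of each of the 36 genes (rows, grouped by role) in each library (columns: C59A, C59S, WT) as log2 of CPM over the mean of the WT libraries; red is higher and blue lower. C59S columns are red nearly throughout, with C59S 3 holding the highest value in 31 rows, and the WT 2 column holds the lowest value in 33 rows. Lyve1 and Prox1, the last 2 rows, vary between libraries of the same genotype.

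Other vessel genes outside the 36 were read in the same fit. Of 22 further endothelial genes, 4 were called lower in C59A than in C59S, where 2.56% of all genes were. None was called against WT in that fit. With the replicate block in the C59S and WT libraries, 6 were higher in C59S (Adgrl4, Calcrl, Gimap6, Myct1, Palmd and Plat, adjusted p 0.0321 to 0.0487), where 3.82% of all genes were called in either direction. All 22 were above 0 in C59S vs WT, where 51.1% of all genes were, with a median log2 fold change of 0.63. At an unadjusted p under 0.05, 12 were higher, where 8.23% of all genes were. The 4 were Aplnr, the apelin receptor (-1.97 ± 0.40, adjusted p 0.0186), Tm4sf1 (-0.92 ± 0.19, adjusted p 0.0193), Myct1 (-1.04 ± 0.23, adjusted p 0.025) and Slco2a1, a prostaglandin transporter (-0.50 ± 0.13, adjusted p 0.0486). In these genes, too, C59S replicate 3 was most often the highest library (14 of 22) and WT replicate 2 the lowest (17 of 22). Of 15 further endothelial transcription factors tested, 3 were lower in C59A than in C59S: Mef2c (-0.92 ± 0.20, adjusted p 0.0243), the flow-responsive factor Klf2 (-0.79 ± 0.19, adjusted p 0.0354) and Foxc2, which is in the lymphatic list too (-0.92 ± 0.23, adjusted p 0.0389). None of the 15 passed against WT in that fit, and with the block Klf2 and Foxc1 were higher in C59S (adjusted p 0.0476 to 0.049). Foxc1 overlapped, at 25.7 to 49.3 CPM in C59S and 16.3 to 37.1 CPM in WT, with an adjusted p of 0.551 in that fit. Among 22 genes of Notch, BMP and sphingosine-1-phosphate signalling, none passed in that fit, and with the block Jag2 and Smad6 were higher in C59S than in WT. There were 7 higher in C59S vs WT and 10 lower in C59A vs C59S at an unadjusted p under 0.05. Of all genes, 8.23% and 11.9% were so at that level. The inhibitor of BMP signalling Smad6 had 23.5, 22.6 and 24.4 CPM in C59A, 34.0, 28.9 and 42.1 CPM in C59S and 23.7, 17.0 and 21.1 CPM in WT (0.76 ± 0.16 in C59S vs WT, log2, adjusted p 0.121, or 0.0375 with the block).

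Of 10 vessel growth factors, Apln passed in both comparisons of C59A, and no other did in the fit of all 9 libraries. With the block, Vegfa was lower and Angpt2 higher in C59S than in WT (adjusted p 0.0321 to 0.0351). Angpt2 had 31.9, 10.3 and 10.4 CPM in C59S and 14.8, 3.01 and 4.05 CPM in WT. These groups overlapped, and without the block its adjusted p was 0.469 (edgeR). Apln, the peptide ligand of Aplnr made by sprouting tip cells, had 2.96, 3.17 and 3.48 CPM in C59A, 10.8, 10.4 and 9.84 CPM in C59S and 6.61, 9.64 and 4.86 CPM in WT. The 3 genotypes did not overlap. The log2 fold change was -1.13 ± 0.24 in C59A vs WT (adjusted p 0.0197), -1.69 ± 0.24 in C59A vs C59S (adjusted p 0.00248) and 0.56 ± 0.23 in C59S vs WT (adjusted p 0.238). Against C59S it passed in all 9 fits that left out a library (adjusted p at most 0.0187), and against WT it did not pass without C59A replicate 1, C59A replicate 3, WT replicate 1 or WT replicate 2 (at most 0.0778). Aplnr had 2.41, 1.41 and 2.43 CPM in C59A, 5.59, 10.1 and 8.97 CPM in C59S and 4.92, 2.66 and 8.14 CPM in WT, and its call was lost without C59A replicate 1 or 3 or C59S replicate 2 or 3.

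Vegfa, the main ligand of Kdr, made in the kidney by podocytes and tubules, had 520, 402 and 466 CPM in C59A, 337, 401 and 333 CPM in C59S and 738, 617 and 546 CPM in WT. All 6 knock-in libraries lay below all WT libraries. The log2 fold change was -0.45 ± 0.17 in C59A vs WT (adjusted p 0.147) and -0.83 ± 0.17 in C59S vs WT (adjusted p 0.121, or 0.0351 with the replicate block in those 6 libraries). Angpt1, the activating ligand of Tie2, had 4.46, 3.96 and 6.1 CPM in C59A, 7.34, 8.07 and 10.9 CPM in C59S and 7.62, 8.29 and 10.7 CPM in WT. C59A lay below both other groups, with log2 fold changes of -0.84 ± 0.23 against C59S (adjusted p 0.0565) and -0.87 ± 0.23 against WT (adjusted p 0.0511).

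**Figure D4:**
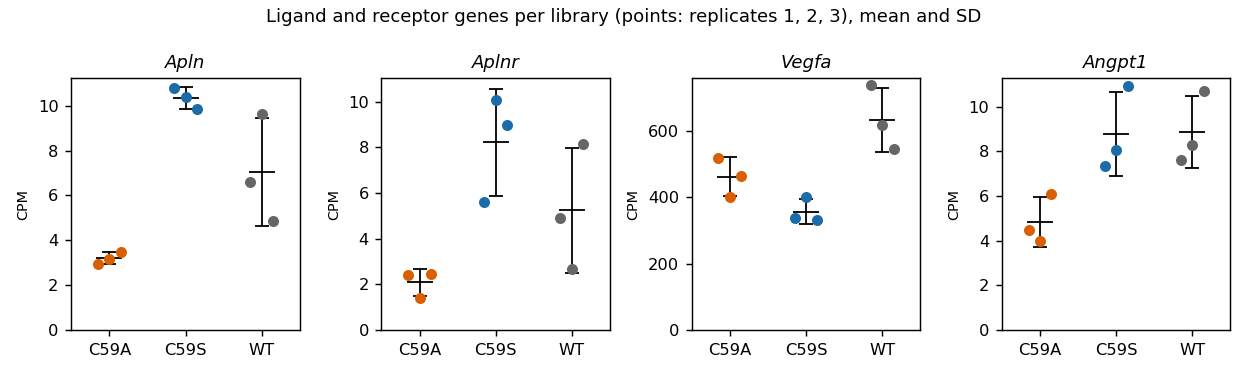
CPM (y axis) of Apln, Aplnr, Vegfa and Angpt1 in each C59A, C59S and WT library (x axis); points are replicates 1 to 3 and bars the mean and SD (n = 3). The C59A libraries are lowest for Apln at 2.96 to 3.48 CPM, and all knock-in libraries lie below the WT libraries for Vegfa.

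Genes of activated endothelium gave no call: of 11, 8 were tested, with medians of 0.21 in C59A vs WT, 0.52 in C59S vs WT and -0.32 in C59A vs C59S. Icam1, an adhesion gene that NF-κB is known to induce, ranged from 16.8 to 28.3 CPM in C59A, 18.1 to 25.0 CPM in C59S and 14.3 to 18.3 CPM in WT. Vcam1, another such gene, ranged from 9.29 to 15.1 CPM in C59A, 16.9 to 21.8 CPM in C59S and 8.41 to 16.8 CPM in WT. Of 6 further lymphatic genes tested, Foxc2, the same call as among the transcription factors, and Mmrn1 (-1.74 ± 0.45, adjusted p 0.0449) were lower in C59A than in C59S. For Foxc2 the C59A libraries also lay below all WT libraries (-0.74 ± 0.23, adjusted p 0.0863). Which cells its RNA came from was not tested.

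Markers of other cell types also differed between libraries, and their part in the endothelial values was not tested. The adipocyte, fibroblast and smooth muscle sums were highest in C59S replicate 3, as most endothelial genes were, and the podocyte, leukocyte, platelet and erythroid, and proximal tubule sums were highest in other libraries. The 8 adipocyte genes summed to 98.8, 13.6 and 248 CPM in C59A, 14.2, 539 and 910 CPM in C59S and 14.6, 13.5 and 15.9 CPM in WT; in WT 1 to 3 of Adipoq, Lep and Plin1 had no count in a library, and none of the 8 genes was called. In the same order of libraries, the median of the 36 endothelial genes (log2 CPM minus the WT mean) was 0.1, 0.32 and -0.14 in C59A. It was 0.7, 0.66 and 1.05 in C59S and 0.15, -0.61 and 0.4 in WT. A link between these medians and the adipocyte sums was not tested. The 10 fibroblast genes summed to 187 to 372 CPM in C59A, 205 to 548 CPM in C59S and 128 to 258 CPM in WT. All 10 were above 0 in C59S vs WT (median 1.45), and 3 (Lum, Postn and Dpt) were called higher there with the block (adjusted p 0.0321 to 0.0438). Lum, a collagen-binding proteoglycan, was lower in C59A than in C59S (-1.73 ± 0.37, adjusted p 0.0208).

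The 13 pericyte and smooth muscle genes, which wrap the same vessels, summed to 511 to 767 CPM in C59A, 637 to 1470 CPM in C59S and 555 to 916 CPM in WT. Of these, Rgs5, a pericyte gene, was lower in C59A than in C59S (-1.0 ± 0.26, adjusted p 0.0496). Podocytes sit on the outer face of the glomerular capillary, and their 8 genes summed to 299 to 485 CPM in C59A, 547 to 833 CPM in C59S and 457 to 826 CPM in WT. Of the 8, Nphs1 (-0.93 ± 0.19 against WT, adjusted p 0.0171, and -0.96 against C59S, adjusted p 0.0167) and Magi2 (-0.83 ± 0.16, adjusted p 0.0105, and -0.81, adjusted p 0.0146) were lower in C59A than in both other genotypes. Between C59S and WT the podocyte median was 0.09, beside 0.77 for the 36 endothelial genes.

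The 10 leukocyte genes summed to 103 to 201 CPM in C59A, 130 to 180 CPM in C59S and 67 to 119 CPM in WT, with Itgam higher in C59A than in WT (1.64 ± 0.39, adjusted p 0.0317) and, with the block, C1qa and C1qb higher in C59S than in WT (adjusted p 0.0398 to 0.0466). The 10 platelet and erythroid genes summed to 315 to 540 CPM in C59A, 253 to 579 CPM in C59S and 163 to 420 CPM in WT, and none of the 9 tested was called. WT replicate 2 held the lowest sum of these blood genes at 163 CPM, and it was the lowest library for most endothelial genes. It also held the lowest fibroblast (128 CPM) and adipocyte (13.5 CPM) sums. The smooth muscle, podocyte, leukocyte and proximal tubule sums were lowest in other libraries. The 8 proximal tubule genes, which show that the tissue is kidney, summed to 10600 to 15100 CPM in C59A, 9770 to 13100 CPM in C59S and 15100 to 16400 CPM in WT. Among them Slc5a2 was lower in C59A than in WT (-1.44 ± 0.23, adjusted p 0.00412) and, with the block, in C59S than in WT (adjusted p 0.0438), and Slc22a6 was higher in C59A than in WT (0.91 ± 0.22, adjusted p 0.0312) and than in C59S (1.21 ± 0.22, adjusted p 0.00979).

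**Figure D5:**
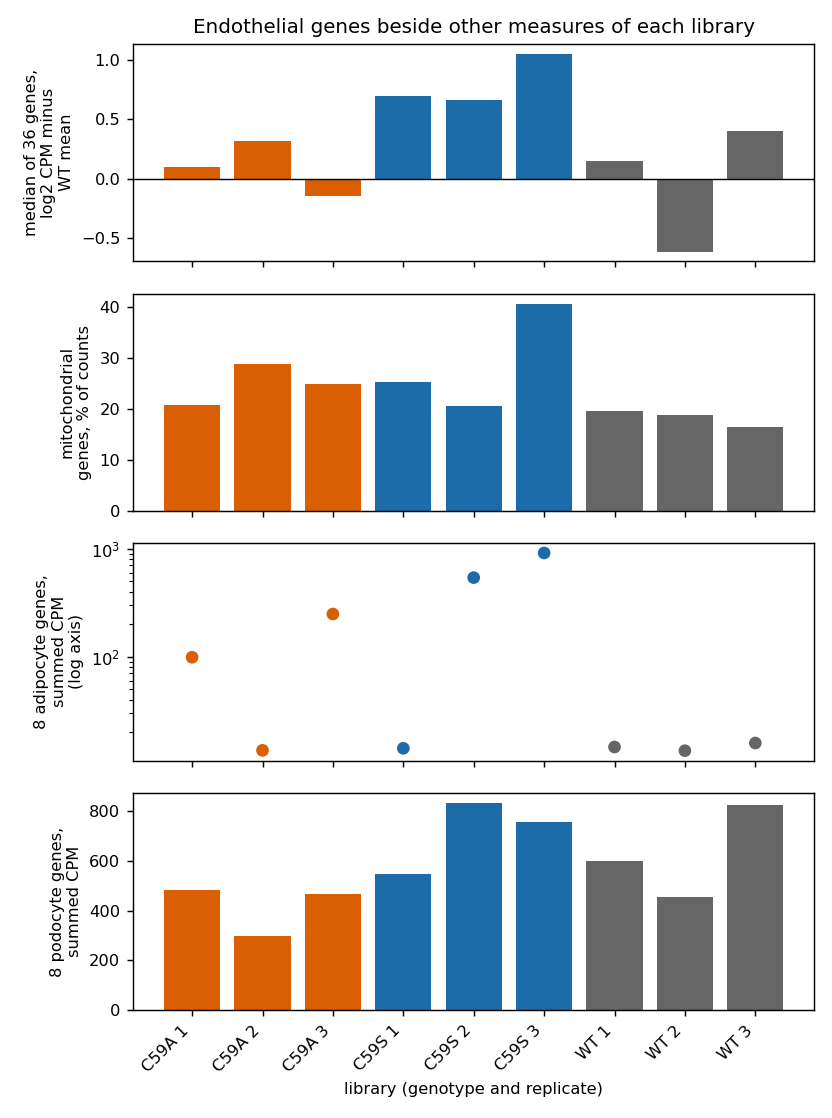
Per library (x axis: C59A, C59S, WT), from top to bottom: median of the 36 endothelial genes as log2 CPM minus the WT mean, mitochondrial genes in % of counts, summed CPM of 8 adipocyte genes on a log axis, and summed CPM of 8 podocyte genes. C59S 3 has the highest endothelial median (1.05), mitochondrial share (40.6%) and adipocyte sum (910 CPM). C59S 1 and C59S 2 have endothelial medians of 0.7 and 0.66 and adipocyte sums of 14.2 and 539 CPM. Links between these measures were not tested.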

How the data were processed

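RNA of 9 mouse kidney samples (3 each of C59A, C59S and WT, grouped by title and genotype label) was extracted with TRIzol and made into libraries with a NEBNext Ultra kit, per the labels' protocols. The authors deposited read counts per gene and FPKM; reads were processed with CASAVA 1.8, fastp, HISAT2 2.0.5 and featureCounts 1.5.0-p3 on GRCm38, and DESeq2 1.20.0 is also named, per the submitters' processing notes. The deposited FPKM divide the counts by gene length and by 0.802 to 1.15 times the library total, so they served for levels between genes and for alternatives. The strand setting of the counting is not given in the sources used here.

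Counts were fitted with edgeR 4.0.16 (R 4.3.3; filterByExpr, TMM, robust dispersions, 1 quasi-likelihood model of all 9 libraries) with Benjamini-Hochberg adjustment over 17114 genes and a threshold of 0.05. SE is the log2 fold change divided by the square root of F. Scripts were tested on simulated data. Precision rests on library totals of 16367403 to 25787659 counts, and 3 replicates per group limit it further. The pairwise count comparison of replicates found no pair that agreed within sampling noise (chi-square per degree of freedom 22.3 to 123).

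The 36 genes and 13 other lists (153 genes) were chosen with earlier results of these data known. Levels are given for all 36 genes, and fold changes with adjusted p mainly for those called or at an unadjusted p under 0.05; of other lists the called genes and up to 3 of smallest p may be named, and Icam1 and Vcam1 are given by range. List genes named only as called with the replicate block fall outside this rule and were chosen after their values were seen.

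Titles number replicates 1 to 3 in every group. Deviations from group means of same-numbered C59S and WT libraries correlated at 0.32, 0.2 and 0.26 over all genes. The numbers were taken to pair them on that ground alone. The deposited column names of these libraries carry numbers that differ within each such pair. Over the 36 genes alone the correlations were -0.06, -0.36 and 0.16. For C59A the correlations were 0.01, -0.09 and 0.05 with WT and -0.09, -0.29 and 0.05 with C59S. Alternatives were DESeq2 1.42.0, limma 3.58.1 (voom with quality weights, and log2 FPKM with pseudocounts of 1 and 0.1 above a mean FPKM of 0.5 or with no filter), RLE factors, library totals alone, other filters, no mitochondrial genes, the 2 groups alone, the replicate block, and leaving out each library.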

Additional observations from a re-analysis of the deposited data

Results flagged for a closer look

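C59A and C59S differ in the allele and in the sex-linked genes, and these cannot be told apart here. Of all genes, 5.91% passed in C59A vs C59S at an adjusted p under 0.05 (edgeR's quasi-likelihood test), 2.56% lower and 3.35% higher. Of the 36 member and 153 list genes, 21 passed there, given as log2 fold changes. Among the 36 endothelial genes these were Dll4 (-1.08), Efnb2 (-1.02), Icam2 (-0.97), Cdh5 (-0.95), Cldn5 (-0.95), Pecam1 (-0.92) and Ramp2 (-0.8), all lower in C59A. Among other vessel genes they were Aplnr (-1.97), Mmrn1 (-1.74), Apln (-1.69), Myct1 (-1.04), Foxc2 (-0.92), Mef2c (-0.92), Tm4sf1 (-0.92), Klf2 (-0.79) and Slco2a1 (-0.5). In genes of neighbouring cells they were Lum (-1.73), Rgs5 (-1.0), Nphs1 (-0.96), Magi2 (-0.81) and Slc22a6 (1.21), the last higher in C59A. Apln kept its call in all 9 fits that left out a library, and Dll4 in 7 of the 9. The remaining 6 of the endothelial calls held in 3 or 4 of the 9. Slc22a6 held in 8, Nphs1 and Magi2 in 6, Aplnr, Myct1, Mef2c, Tm4sf1 and Lum in 5, Mmrn1, Foxc2 and Klf2 in 3, and Slco2a1 and Rgs5 in 2.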

How the results depend on the processing

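None of the members at an unadjusted p under 0.05, nor of the other list genes followed, changed direction under any alternative. In C59A vs C59S, 1 of the 36 genes was above 0 with voom and without C59A replicate 1, 2 or 3, C59S replicate 1 or 3, or both C59S replicate 3 and WT replicate 2. In C59A vs C59S the median of the 36 genes was between -0.84 and -0.54 in all of them. The number of the 36 called there was 7 with all libraries, where 5.91% of all genes were called. It became 14 with DESeq2 (10.3% of all genes), 12 with voom (10.3%) and 20 in the 2 groups alone (7.59%). With the replicate block it was 4 in those groups (2.03%) and 6 over all 9 libraries (5.68%). On log2(FPKM + 1) or log2(FPKM + 0.1) above a mean FPKM of 0.5 it was 1 (4.34% and 4.39%). On unfiltered log2(FPKM + 1) it was 0 (0.994%). With a library left out it ranged from 0 to 18 (1.8% to 7.4%). In C59S vs WT, 0 became 12 with DESeq2 (3.75% of all genes) and 6 with no filter on low counts (0.984%). It was 13 with the replicate block in the 2 groups (3.82%, 11 of the 13 shared with DESeq2). With a library left out the number ranged from 0 to 13, the 13 without WT replicate 3 (4.17%). The median there was 0.52 without WT replicate 2, 1.00 without WT replicate 3 and 0.37 without C59S replicate 3 and WT replicate 2. In C59A vs WT, 0 became 1 without WT replicate 3 (range 0 to 1), where 4.82% of all genes were called. Scaled by library totals and no TMM factor, the medians of the 36 genes were -0.19 in C59A vs WT and 0.55 in C59S vs WT, while those over all genes were -0.26 and -0.19.

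Of the 13 other lists (153 genes), the number of genes called in C59A vs WT was 6 with all libraries, where 5.7% of all genes were called. It was 12 with library totals (6.3% of all genes), 12 with no filter (3.77%) and 23 with DESeq2 (9.43%). It was 3 with either filtered FPKM (4.81% to 4.94%), 1 with unfiltered FPKM (1.52%) and 2 to 10 with a library left out (2.85% to 5.32%). In C59S vs WT it was 0 (0% of all genes), then 2 with library totals (0.117%), 9 with no filter (0.984%) and 25 with DESeq2 (3.75%). It was 18 with the replicate block in the 2 groups (3.82%) and 0 to 21 with a library left out (0% to 4.17%). In C59A vs C59S it was 14 (5.91% of all genes), then 22 with no filter (4.2%), 26 with DESeq2 (10.3%) and 27 with voom (10.3%). It was 7 with either filtered FPKM (4.34% to 4.39%), 1 with unfiltered FPKM (0.994%) and 25 in the 2 groups alone (7.59%). It was 3 with the replicate block, 6 without WT replicate 2 and C59S replicate 3 (2.12%), and 2 to 25 with a library left out (1.8% to 7.4%). The causes were not tested. At these depths the low counts of Lyve1 limit its fold change, and with 3 libraries per group a p that misses the threshold does not show equal levels.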
